A study of Mus musculus with 16 samples.

Results

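The telomeric end of mouse chromosome 6, from 134.3 Mb to the last listed site at 149.201 Mb (mm9), was examined for its contacts with 2 promoters by 4C-seq, a method in which inverse PCR from a chosen viewpoint recovers the fragments ligated to it after crosslinking. The members are all sites on chromosome 6 above 134.3 Mb in the 16 deposited site lists. They number 10767 of 327988 listed entries, of which 10191 came from the 8 libraries of the Cdca3 viewpoint and 576 from the 8 libraries of the Pole viewpoint. The Cdca3/Usp5 bidirectional promoter lies on the same chromosome, so its contacts here are in cis, at 10.0 to 24.9 Mb from the middle of the empty stretch taken to hold it. The Pole/Pxmp2 bidirectional promoter lies on chromosome 5 and gives the trans view.

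The cells were mouse embryonic fibroblasts (MEFs), primary cells prepared from E13.5 embryos and used while proliferating at passage 4. Each viewpoint had 4 libraries from Rb1+/+ cells, with an intact Rb1 gene, and 4 from Rb1L/L cells, homozygous for the Rb1L allele, which the labels name without describing. No other allele or treatment is given. The replicates carry MEF pair identifiers, which recur across the viewpoints. On that basis each culture was counted once per viewpoint, as 8 cultures in all, and the labels leave unsaid what a pair has in common.

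Regions far apart on a chromosome can be crosslinked and ligated when they lie close together in the nucleus. Contact frequency generally falls with distance along the chromosome, and at distances of many megabases contacts gather in patches, because active and inactive chromatin tend to keep apart in separate compartments. Trans contacts are rarer and more diffuse. Cdca3 encodes a protein that promotes entry into mitosis, and Pole encodes the catalytic subunit of a replicative DNA polymerase. pRb, the product of Rb1, restrains entry into the cell cycle through E2F transcription factors. In the order of the RefSeq annotation, the chromosome beyond Cdca3 holds Etv6, Cdkn1b, Grin2b, Ptpro, Pde3a, Sox5, Itpr2, Pthlh and Bicd1 toward the telomere. Cdkn1b encodes an inhibitor of cyclin-dependent kinases and Grin2b a subunit of the NMDA receptor. No gene was assigned to a contacted block, since no mm9 annotation was used here.

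The sequence shown here is from the promoter that names the viewpoint of the cis contacts below. Whether this window lies in the viewpoint's HindIII fragment was not checked. The window is the RefSeq promoter of Cdca3, from 250 bases before to 50 after the gene's start, on the plus strand of chr6:124829926-124830225 in GRCm38.p6 (all other positions are mm9). Capitals mark CATG, the site of NlaIII, the second enzyme of the protocol.
Cdca3 promoter: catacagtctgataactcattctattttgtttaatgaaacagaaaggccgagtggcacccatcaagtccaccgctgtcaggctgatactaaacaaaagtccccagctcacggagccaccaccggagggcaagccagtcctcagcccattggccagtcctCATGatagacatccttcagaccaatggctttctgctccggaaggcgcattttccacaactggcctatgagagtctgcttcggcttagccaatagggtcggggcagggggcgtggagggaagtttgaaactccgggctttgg
The window held 1 NlaIII site (CATG, the same on both strands), and 61.1% of the 32851 promoters of this length in the table held at least 1. It held 0 sites of HindIII (AAGCTT, the same on both strands), the first enzyme, which occurs in 7.45% of them. The ends of the viewpoint's HindIII fragment are therefore not in this window.

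The 16 libraries listed 6485 to 39650 sites each, over both cis and trans. Cdca3 libraries listed 5265 to 9622 cis sites and Pole libraries 2616 to 8899 trans sites. These numbers are the only measure of yield, because the files give no read counts and the sequencing depth is unknown. Pair 1 had the shortest lists at both viewpoints in both genotypes. No 2 Cdca3 libraries were copies of each other, and the distinct sites of the stretch shared by a pair of libraries made up 48.5% to 75.5% of the sites listed in either.

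Seen from Cdca3, the stretch held 6 contacted blocks. A block is the union of the authors' called regions that overlapped by at least 1 bp in any Cdca3 library. Block 1 (chr6:134300001-136134360), block 2 (chr6:136159651-137800758), block 3 (chr6:139448764-141535714) and block 5 (chr6:144434705-147214414) were called in 8 of 8 libraries. Block 6 (chr6:148532010-149349748), at the end of the chromosome, was called in 7. Block 4 (chr6:142249178-143303978) was called in 3. The blocks added up to 10.1 Mb, or 67.6% of the stretch. Blocks 1 and 2 nearly touch, and the other neighbours are further apart.

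**Figure D1:**
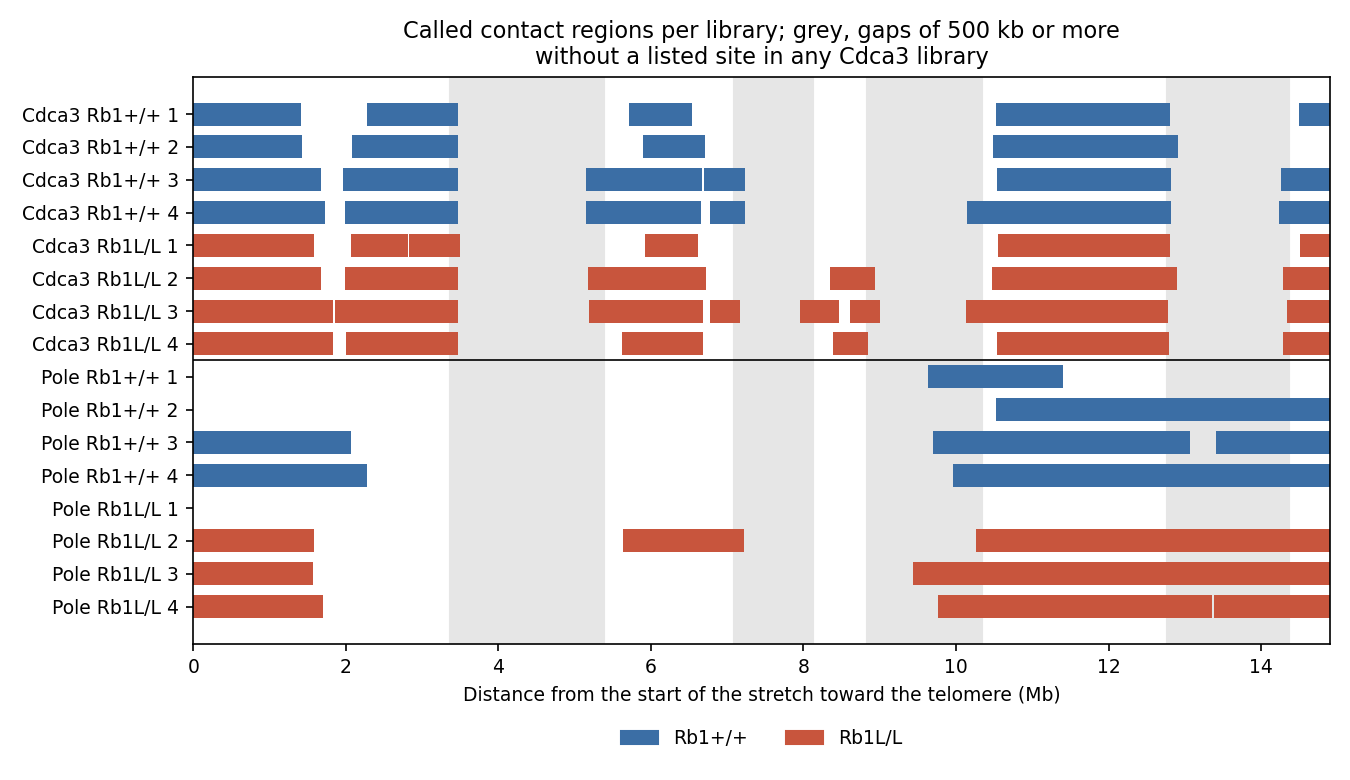
Called contact regions in each of the 16 libraries (rows) against the distance in Mb from the start of the stretch toward the telomere, coloured by genotype; grey bands are the 4 gaps of 500 kb or more without a listed site in any Cdca3 library. The Cdca3 rows repeat the same blocks with block 4 in 3 Rb1L/L libraries only among the 8, and 6 of the Pole rows have called regions in the last grey band.

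Blocks 5 and 1 held most of the contacts. Block 5 is the longest at 2.78 Mb and held 35.6% of the Cdca3 entries in the stretch. It begins 20.2 Mb from the middle of the empty stretch taken to hold the viewpoint. It listed 362 to 540 sites per library, and 213 of its 625 distinct sites (34.1%) were in all 8 libraries. Block 1, the nearest, held 25.4% of the entries and listed 253 to 361 sites per library. Of its 432 distinct sites, 191 (44.2%) recurred in all 8 libraries. Its start is that of the stretch, not an edge of contact. The 500 kb just inside the start listed 117 to 136 sites per Cdca3 library, and the 500 kb just outside listed 71 to 89. The 5 windows of 500 kb with the highest mean were in blocks 5, 1 and 2 and began at 145.5, 134.5, 145.0, 135.0 and 137.0 Mb. The highest of them, at 145.5 Mb, listed, per 1000 cis sites, 15.9 ± 1.62 for Rb1+/+ and 15.9 ± 2.40 for Rb1L/L (SD, n = 4 each).

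Block 2 held 18.4% of the entries, with 134 to 296 sites per library. Its share of the cis list varied little, from 25.5 to 31.5 sites per 1000 over the 8 libraries. Its far edge varied least of all edges of blocks called in 8 libraries, and the called regions ended between 137.764 and 137.801 Mb in all 8 libraries, a range of 36.3 kb. The telomeric end of block 5 was the next most fixed among the blocks called in 8 libraries, at 147.086 to 147.214 Mb, a range of 128 kb. The near edge of block 2 ranged over 417 kb, and that of block 5 over 415 kb.

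Block 3 was contacted in every Cdca3 library but changed most in extent among the blocks called in all 8. Its start ranged over 770 kb and its end over 701 kb. In Rb1+/+ cells replicates 1 to 4 listed 75, 101, 326 and 275 sites there, and in Rb1L/L cells 66, 195, 204 and 133. Replicates 3 and 4 of Rb1+/+ were the highest of the 8, the pair 1 libraries were the lowest, and the genotypes overlapped. Only 33 of the 397 distinct sites (8.31%) were in all 8 libraries, while 86 (21.7%) were in 1. All 8 libraries reached the middle of the block. A separate region toward its telomeric end was called in Rb1+/+ replicates 3 and 4 and Rb1L/L replicate 3, and it became a block of its own (chr6:141120793-141391265) when sites within 250 kb of each other were chained instead.

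Block 6 listed 26, 0, 126 and 139 sites in Rb1+/+ replicates 1 to 4 and 20, 120, 65 and 117 in Rb1L/L. Rb1+/+ replicate 2 had no called region there, and both pair 1 libraries were low. Of its 152 distinct sites 0 were in all 8 libraries. The share of entries with a deposited value under 0.01 ranged in this block from 0% in Rb1L/L replicate 1 to 92.1% in Rb1+/+ replicate 4.

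Block 4 was listed only in Rb1L/L libraries. Replicates 2, 3 and 4 listed 40, 44 and 21 sites, and Rb1L/L replicate 1 and all 4 Rb1+/+ libraries listed 0. The groups overlap because of Rb1L/L replicate 1, which has the fewest cis sites of all (5265). Rb1L/L replicates 2 and 3, which listed the block most, are the longest Cdca3 lists, with 39650 and 37263 sites in all, 9622 and 9401 of them in cis. Replicate 4 has 8305 cis sites, and the longest Rb1+/+ lists, replicates 3 and 4, have 9316 and 9349. The part that list length plays in block 4 was not tested. The block is the weakest in the stretch on the deposited values. Of its entries 0% were under 0.01 in each of the 3 libraries, and the lowest value was 0.0108, while in block 5 the share under 0.01 was 79.5% to 98.7%. Of its 91 distinct sites 77 (84.6%) were in 1 library each. In sites per 1000 cis sites, Rb1L/L had 2.84 ± 2.10 (SD, n = 4) and Rb1+/+ 0 in each of 4. Block 4 is a block only through the regions called in Rb1L/L libraries, so this difference is given as a description. It was run with the other blocks in the test of genotype below, and nothing is read from its p-value. Block 4 is the 1 block of the 53 (1.89%) that 3 or more libraries of either genotype called while the opposite genotype had 1 or 0, a criterion chosen after its values were seen.

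There were 4 gaps of 500 kb or more in which none of the 8 Cdca3 libraries listed a site. Called regions run past their outermost listed sites, so these gaps overlap the edges of the blocks. They were chr6:137665966-139684780 (2.02 Mb), chr6:141391266-142428698 (1.04 Mb), chr6:143128734-144636906 (1.51 Mb) and chr6:147066573-148661065 (1.59 Mb), together 6.16 Mb or 41.3% of the stretch. The first and second held 0 Pole entries as well. The third held 5 Pole entries, all from 1 library. The fourth held 73 Pole entries from 6 libraries, so sites in this gap can be listed but no Cdca3 library listed them. Over all 16 libraries 5.36 Mb (36.0%) stayed in gaps of this size, and the longest was the first, which follows the sharp edge of block 2. Whether the other gaps hold fragments that the method can map was not tested, since no mm9 sequence was used here.

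Recurrence was high from Cdca3. Called regions of all 8 Cdca3 libraries covered the same 36.5% of the stretch (5.43 Mb), and 32.4% was covered by none. Merged over libraries, the listed intervals gave 2042 distinct sites, of which 496 (24.3%) were in all 8 libraries and 305 (14.9%) in 1. On the rest of chromosome 6, 15.9% of 12696 distinct sites were in all 8 and 19.5% in 1. This difference is a description of the lists and was not tested. From Pole, 301 of 423 distinct sites (71.2%) were in 1 library and none was in more than 5.

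**Figure D2:**
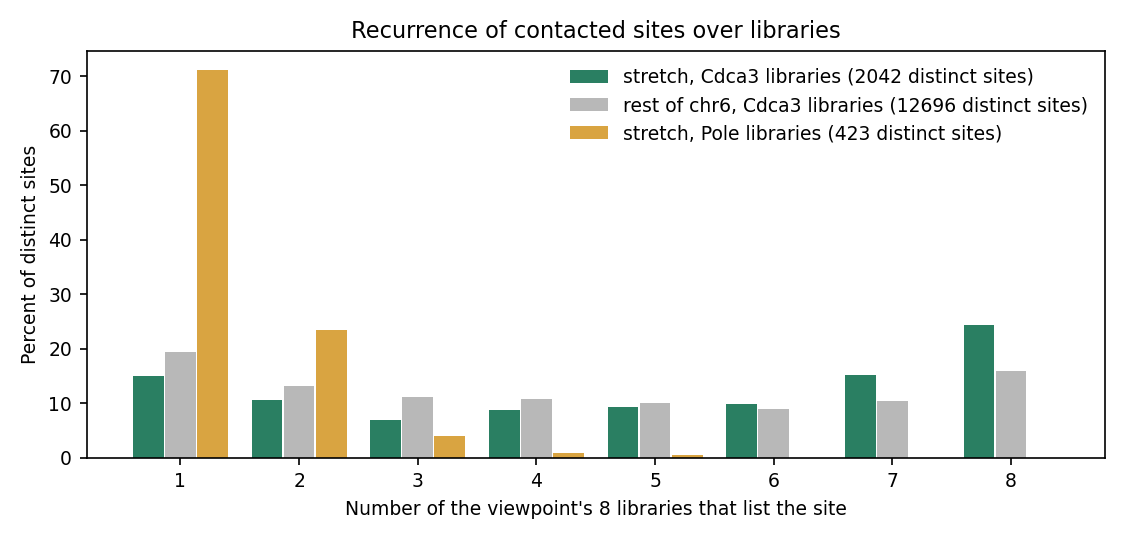
Percent of distinct sites (vertical axis) by the number of a viewpoint's 8 libraries that list them, for the stretch in Cdca3 libraries, the rest of chromosome 6 in Cdca3 libraries and the stretch in Pole libraries. The Cdca3 bars of the stretch are highest at 8 libraries (24.3%), and the Pole bars at 1 (71.2%).

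Genotype was compared first over the stretch as a whole. Of every 1000 cis sites in Cdca3 libraries, 147.8, 146.6, 164.9 and 169.3 lay here in Rb1+/+ replicates 1 to 4, and 165.8, 154.9, 154.2 and 160.1 in Rb1L/L. All 4 Rb1L/L values fell between the lowest and the highest Rb1+/+ value. The means were 157 ± 11.6 and 159 ± 5.40 (SD, n = 4 each), a difference of 1.60 with a 95% interval of -15.1 to 19.2 (exact permutation test, p = 0.857). Rb1L/L was higher in 2 of 4 numbered pairs. The sign of this difference turned in several other settings: -2.28 with deposited values under 0.01, -3.98 per 1000 of all sites and -3.35 from a start 5 Mb farther. It was also below 0 without Rb1+/+ replicate 1 (-1.52), Rb1+/+ replicate 2 (-1.91) or Rb1L/L replicate 1 (-0.753), and none of these gave a called difference.

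The covered part of the stretch showed no called difference either. Called regions covered 41.0%, 40.6%, 54.8% and 57.1% in Rb1+/+ replicates 1 to 4, and 42.6%, 55.8%, 63.5% and 51.6% in Rb1L/L. The genotypes overlapped, and the 3 libraries below 45% were also those with the fewest cis sites (5265, 6170 and 6935). Mean coverage was 48.4% ± 8.81 and 53.4% ± 8.71 (n = 4 each), and the difference was 4.99 percentage points with a 95% interval of -14.5 to 22.9 (exact permutation test, p = 0.457; higher in Rb1L/L in 3 of 4 pairs). The called regions themselves listed 149 to 188 sites per Mb in Rb1+/+ and 138 to 179 in Rb1L/L. The part that list length plays was not tested.

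No block passed the test of genotype. Adjusted over the 53 blocks of chromosome 6, 0 of the 6 blocks passed 0.05 in the exact permutation test, against 0% of all 53. The smallest p that 70 assignments allow is 0.0286, so with Benjamini-Hochberg adjustment 31 blocks would have had to reach it together. Block 4 is counted among the 6 but is a block through Rb1L/L calls alone, so its overlap is a description and nothing is read from its test. Unadjusted, 0 of the 6 reached 0.05, and the groups overlapped in all 6, beside 3.77% of the 53 blocks (2) whose groups did not overlap. On the scale of sites per 1000 in cis, block 1 had 38.8 ± 1.81 in Rb1+/+ and 43.4 ± 8.45 in Rb1L/L, with 1 Rb1L/L library, replicate 1, at 55.3 and the other 3 at 36.7 to 43.5. Block 2 had 28.7 ± 1.13 and 29.1 ± 2.66, a difference of 0.37 with a 95% interval of -4.50 to 4.26. Block 3 had 22.8 ± 11.2 and 17.6 ± 4.17, block 5 had 58.7 ± 6.55 and 56.5 ± 8.22, and block 6 had 8.15 ± 7.21 and 9.32 ± 4.79 (SD, n = 4 each). In each of these the difference was within the spread between libraries.

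**Figure D3:**
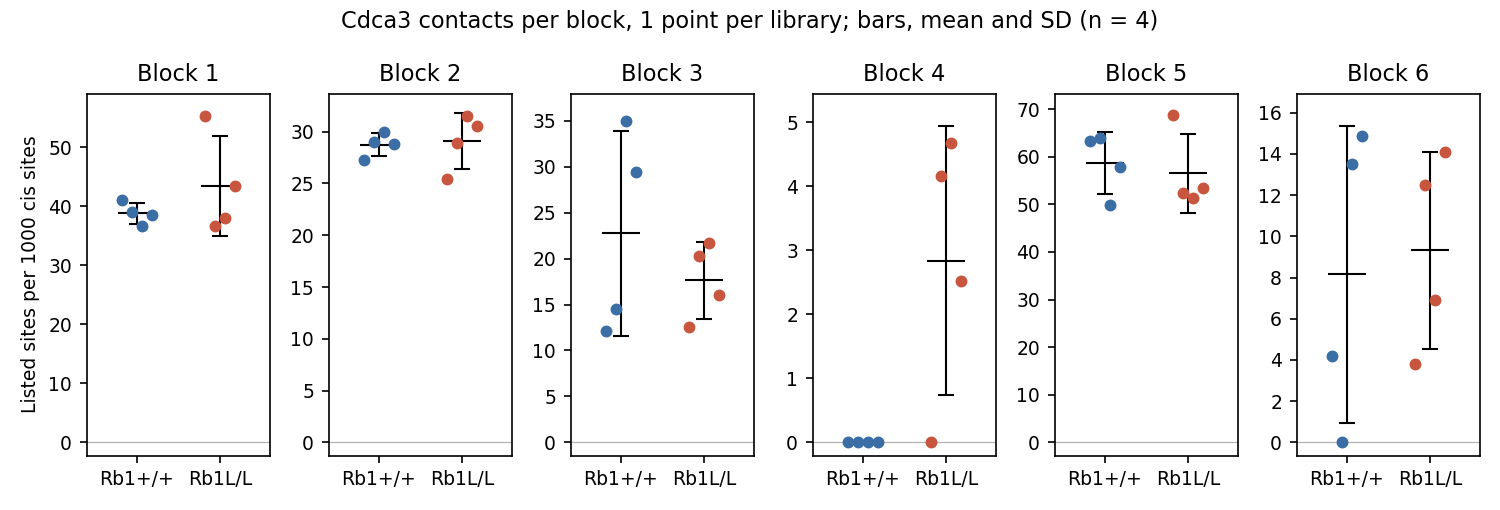
Listed sites per 1000 cis sites (vertical axis, scaled for each block) in the 4 Rb1+/+ and 4 Rb1L/L Cdca3 libraries, with 1 point per library and bars for the mean and SD. The genotypes overlap in all 6 blocks, and in block 4 the 4 Rb1+/+ libraries and 1 Rb1L/L library are at 0.

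In windows of 500 kb, limma's test of log2 site numbers called 0 of the 22 windows of the stretch after Benjamini-Hochberg adjustment over all 161 tested windows of chromosome 6, of which 0% were called (smallest adjusted p = 0.955). Unadjusted, 2 of the 22 were under 0.05, against 2.48% (4) of the 161. Both lie in block 4, and both met the minimum of 8 sites through Rb1L/L libraries alone, so nothing is read from their p-values. The window at 142.5 to 143.0 Mb had a mean of 1.60 ± 1.19 sites per 1000 cis sites in Rb1L/L and 0 in every Rb1+/+ library. The window at 143.0 to 143.5 Mb had 0.819 ± 0.877 and 0. Each was listed in 3 of 4 Rb1L/L libraries. The precision differed between windows. In 10 of the 22 the 95% interval of the log2 fold change lay within 1 of no change, and each of these windows was listed in 8 of 8 libraries. The window at 145.5 Mb had a log2 fold change of -0.01 with a 95% interval of 0.30 to either side. The median log2 fold change was -0.01 over the 22 windows and -0.02 over all 161.

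Few single sites split by genotype. Of the 2042 distinct sites 1 was listed in all 4 Rb1+/+ and no Rb1L/L library, and 2 in all 4 Rb1L/L and no Rb1+/+ library. Over chromosome 6 such sites were 0.244% (36 of 14738). Both genotypes listed 79.2% of the distinct sites of the stretch, and 211 were listed in Rb1+/+ alone and 213 in Rb1L/L alone. Of all 14738 on chromosome 6, both genotypes listed 73.7%, with 1912 in Rb1+/+ alone and 1968 in Rb1L/L alone. The 213 include all 91 distinct sites of block 4, which is a block through Rb1L/L calls alone. In block 3, 130 were in Rb1+/+ alone and 20 in Rb1L/L alone, beside the high lists of Rb1+/+ replicates 3 and 4. No base pair of the stretch was called in all 4 libraries of one genotype and none of the other, at either viewpoint.

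The stretch was compared with the chromosome at the same distances on the centromeric side (chr6:99315500-114216100). Distances were counted from the middle of the empty 3.05 Mb taken to hold the viewpoint, which the files do not mark. The telomeric side had 85.5 ± 19.7 listed sites per Mb and the centromeric side 62.6 ± 6.63 (SD, n = 8). The ratio was 1.34 with a 95% interval of 1.15 to 1.53, higher on the telomeric side in 8 of 8 libraries, and p = 0.00781 in an exact sign-flip permutation test, the smallest that 256 assignments can give. By library the ratio ran from 1.09 to 1.57. The interval measures the spread between libraries at the position taken for the viewpoint, where the log2 ratio was 0.42 (95% interval 0.20 to 0.61). With that position 1 Mb toward the centromere or the telomere, the log2 ratio was 0.66 or 0.86, above this interval, so the size of the ratio is not settled. Called regions covered 50.9% ± 8.53 of the telomeric and 37.2% ± 2.08 of the centromeric side. Gaps of 500 kb or more took 59.8% of the centromeric side, the longest of them 3.71 Mb, against 41.3% here. The log2 ratio was higher by 0.01 in Rb1L/L, a difference within the spread (exact permutation test, p = 0.943). How many sites each side has to offer was not counted, since no mm9 sequence was used here.

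Neither side declined evenly with distance. On the telomeric side the mean was 239 sites per Mb at 10 to 11 Mb and 0 at 14 Mb, and it was 231 again at 21 Mb. On the centromeric side it was 183 at 11 Mb, 0 from 12 to 15 Mb and 243 in the last step, at 24 Mb. Single steps therefore lay in either order. Among others, telomeric means were higher at 10, 12 and 13 Mb (239, 163 and 72 against 121, 0 and 0). At 11, 23 and 24 Mb the centromeric means were higher (183, 167 and 243 against 91.9, 0 and 81.3). The comparison of sides was not run from a farther start, so how far its ratio rests on the first steps was not tested. On the centromeric side 5 gaps stood against 4.

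**Figure D4:**
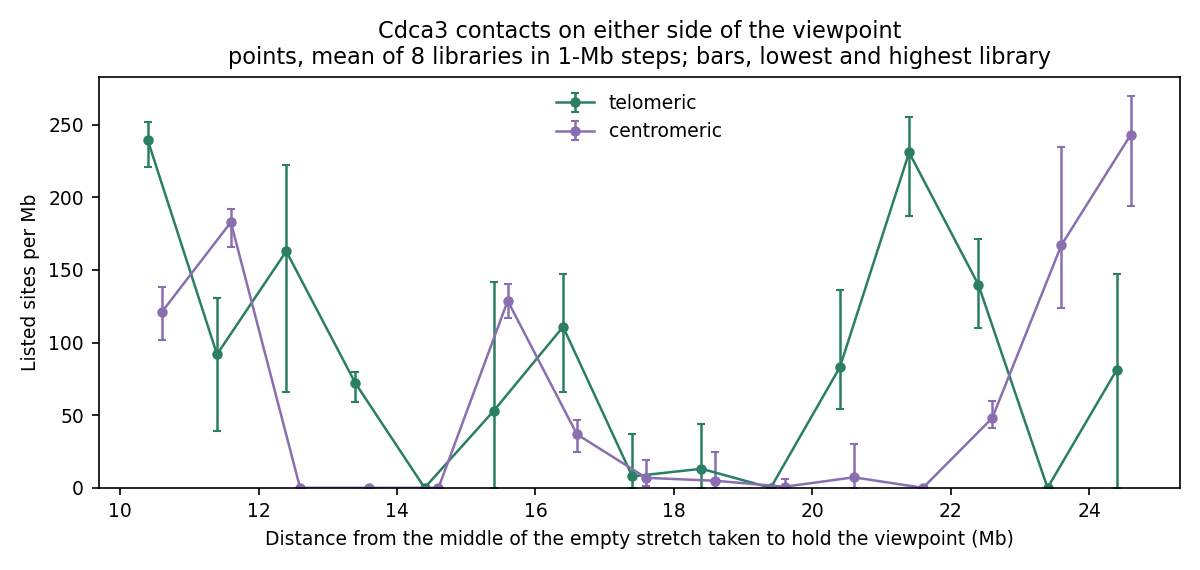
Listed sites per Mb (vertical axis) against the distance in Mb from the middle of the empty stretch taken to hold the viewpoint, for the telomeric and centromeric sides, as the mean of 8 Cdca3 libraries with bars from the lowest to the highest library. The telomeric side peaks at 239 and 231 sites per Mb with empty steps between, and the centromeric side peaks in the last step at 243.

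From Pole, in trans, contacts in the stretch were sparse and lay mostly near its outer end. Rb1+/+ replicates 1 to 4 listed 8, 69, 80 and 117 sites, and Rb1L/L replicates listed 0, 96, 123 and 83. Rb1L/L replicate 1 had no called region here. Pole regions fell in 3 places. The largest (chr6:143742779-149515512) was called in 4 Rb1+/+ and 3 Rb1L/L libraries and held 80.2% of the Pole entries. The first (chr6:134300001-136571534) was called in 2 Rb1+/+ and 3 Rb1L/L libraries and held 19.3%. The remaining one (chr6:139928925-141525073) was called in Rb1L/L replicate 2 with 3 sites. A called Mb held 4.52 to 17.5 Pole sites, against 138 to 188 from Cdca3.

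Pole contacts lay largely in the blocks that Cdca3 contacted. Of the 576 Pole entries 532 (92.4%) were inside Cdca3 blocks, which make up 67.6% of the stretch. Some of the 532 lay in block edges beyond the outermost Cdca3 sites, since the gaps without a Cdca3 site held 5 and 73 Pole entries. How many sites could be listed inside and outside the blocks was not counted. Block 5 took 378 of the 532 entries from 7 libraries, block 1 took 111 from 5 and block 6 took 40 from 6. Block 2, contacted in every Cdca3 library, held 0 Pole entries, as did block 4, and block 3 held 3. Of the distinct Pole sites 360 of 423 were also Cdca3 sites, which is 85.1% of the Pole sites and 17.6% of the Cdca3 sites. The most recurrent site, chr6:146764886-146764892 in block 5, was listed in 12 of 16 libraries, 7 of Cdca3 and 5 of Pole, and no site was in all 16.

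The Pole viewpoint showed no called difference between genotypes here. Sites per 1000 trans sites were 2.52, 16.9, 11.2 and 13.4 in Rb1+/+ replicates 1 to 4, and 0, 12.2, 13.8 and 12.8 in Rb1L/L. Both pair 1 libraries were the lowest of their genotype. The means were 11.03 ± 6.14 and 9.70 ± 6.50 (n = 4 each), a difference of -1.32 with a 95% interval of -16.9 to 11.3 (exact permutation test, p = 0.686; lower in Rb1L/L in 3 of 4 pairs). Coverage was 11.9%, 29.3%, 46.5% and 48.4% in Rb1+/+ and 0%, 52.4%, 47.2% and 45.8% in Rb1L/L. The difference of the means was 2.31 percentage points with a 95% interval of -48.4 to 40.5 (exact permutation test, p = 0.857). Of the 10 windows tested in the stretch, 0 were called by limma and 0 had an unadjusted p under 0.05, against 0% and 2.3% (31) of 1346 trans windows. Coverage moved with the length of the list. The 3 libraries with 2616, 3180 and 4072 trans sites covered 0%, 11.9% and 29.3%, and the 5 with 6469 to 8899 covered 45.8% to 52.4%. The part of list length in these values was not tested.

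**Figure D5:**
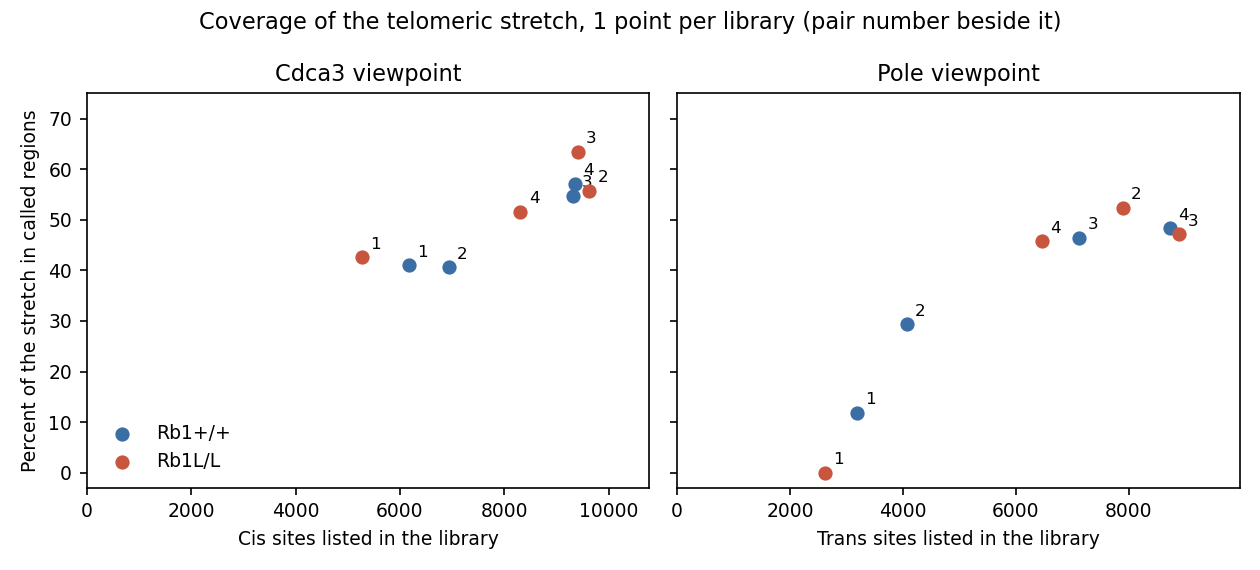
Percent of the stretch in called regions (vertical axis) against the number of cis sites (Cdca3) or trans sites (Pole) listed in the library, with 1 point per library, its pair number beside it and colours for genotype. Pole coverage runs from 0% at 2616 trans sites to 52.4%, and the Cdca3 libraries lie between 40.6% and 63.5%.

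The stretch was more widely covered from Pole than the other trans chromosomes were on average, but not more than their ends. Pole regions covered 35.2% ± 19.5 of it and 23.0% ± 8.11 of the 18 other trans chromosomes (SD, n = 8). The difference was 12.2 percentage points with a 95% interval of 1.41 to 21.2, higher in 6 of 8 libraries (exact sign-flip permutation test, p = 0.0312). Without pair 2, 3 or 4 it was 9.57, 10.6 or 10.3 and did not pass (exact permutation p = 0.125 each). Set against the last stretch of the same length on each of those chromosomes, a comparison added after the data were seen, the direction turned. The other ends were covered to 42.2% ± 13.49, the stretch was lower by 7.04 points (95% interval of the difference -15.0 to 0.101) and was above them in 1 of 8 libraries (exact permutation test, p = 0.0547). Of the 18 ends 12 had a higher mean coverage, and the means ran from 23.5% to 58.8%.

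In the same culture, Cdca3 regions covered more of the stretch than Pole regions in 8 of 8 cultures. The difference averaged 15.7 percentage points (95% interval 6.0 to 27.7; exact sign-flip permutation test, p = 0.00781, the smallest 256 assignments can give), and ran from 3.38 to 42.6. When the start was moved 5 Mb toward the telomere, beyond blocks 1 and 2, the difference was 4.08 points and did not pass (exact permutation p = 0.531). A called Mb held 4.52 to 17.5 sites from Pole and 138 to 188 from Cdca3, so coverage is not a like measure at the 2 viewpoints. Counted as bins of 100 kb with a site, the difference was 27.2 points, higher from Cdca3 in 8 of 8 cultures (exact sign-flip permutation test, p = 0.00781). The genotype effect on coverage was not shown to differ between viewpoints (difference of -2.68 points, exact permutation test, p = 0.771).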

How the data were processed

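The data are 16 4C-seq libraries, each with 2 files that the authors deposited: a list of sites with a p-value or q-value per site, all under 0.05, and a list of called regions. Sites outside the called regions of their library numbered 0. Positions are in mm9, the build named by the submitters' processing notes. For the aligner and the region caller, names and settings were not given in the sources used. The lists hold no read counts, so they move with sequencing depth, which is unknown. The deposited values served as a filter and to describe blocks, and no test was run on them.

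The stretch, its members and the settings tried were chosen with earlier results of these data known. Listed intervals that overlapped between libraries were merged to distinct sites. Called regions were clipped at the start of the stretch. Single values were compared by exact two-sided permutation tests over the 70 assignments of 4 against 4 libraries, or by flipping signs over 8 libraries or cultures, and 95% intervals came from inverting these tests. Windows of 500 kb with at least 8 sites were tested with limma 3.58.1 (R 4.3.3, eBayes with a trend) after a log2 transform. For this 0.5 was added to each site number, with scaling to 1000 cis or trans sites and Benjamini-Hochberg adjustment. The procedure was also run on simulated counts drawn independently for each window and library. Such counts do not copy the clustering of these lists, so nothing about the calls here is read from that run. Named are all blocks, gaps of 500 kb or more, windows with an unadjusted p under 0.05 or among the 5 highest means, Pole regions called in at least 4 libraries and sites in all 16 libraries (there were 0). The Pole region called in 1 library and the most recurrent site were named after their values were seen. Alternatives were a value under 0.01, other windows, bins of 100 kb, other starts, block rules and viewpoint positions, the replicate number as a block and leaving out libraries. The p-values measure the spread between these cultures. Python 3.11.15 was used.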

Additional observations from a re-analysis of the deposited data

Results flagged for a closer look

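Of 19 groups of 4 libraries checked for a library standing apart by Dixon's criterion, which chance meets in about 1 in 20 groups, 3 did so, and all 3 concern Rb1L/L replicate 1, the shortest list at each viewpoint. In the Pole library it had 0 sites per 1000 trans sites in the stretch, against 12.2 to 13.8 in the other 3 Rb1L/L libraries. Its called regions covered 0% of the stretch, against 45.8% to 52.4%. In the Cdca3 library it had 68.8 sites per 1000 cis sites in block 5, against 51.4 to 53.5. Its lists held 2616 trans sites from Pole and 5265 cis sites from Cdca3, and the part of list length in these values was not tested.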

How the results depend on the processing

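No called genotype difference appeared in the stretch under any setting run, for shares, coverage, blocks or windows. The Cdca3 share difference of 1.60 per 1000 became -2.28 with deposited values under 0.01, -3.98 per 1000 of all sites and -3.35 from a start 5 Mb farther, and ran from -1.91 to 5.65 when each library was left out. With each library left out, the Cdca3 coverage difference ran from 1.61 to 8.58 points, the Pole share difference from -4.16 to 1.91 and the Pole coverage difference from -5.07 to 14.4. Block differences per 1000 ran from 0.614 to 6.81 for block 1, -0.424 to 1.59 for block 2, -8.70 to -1.08 for block 3, 2.23 to 3.79 for block 4, -6.29 to -0.432 for block 5 and -1.55 to 3.41 for block 6, with 0 blocks called. Block 4 is defined by Rb1L/L calls alone, so its range is a description. The log2 fold changes of the windows at 134.5, 145.0 and 145.5 Mb became 0.0402, 0.00011 and 0.0350 with values under 0.01, and ran with each library left out from -0.17 to 0.0885, -0.15 to 0.0532 and -0.11 to 0.0510. That at 135.0 Mb ran from -0.10 to 0.14. The unadjusted calls in block 4 fell from 2 windows to 0 when only values under 0.01 were kept, since no site of block 4 has one. Other settings gave other counts of windows in the stretch with an unadjusted limma p under 0.05. With 1 added to each site number they were 3 of 22, against 5 of 161 on chromosome 6. Windows of 1 Mb gave 3 of 14, against 4 of 104, and windows of 250 kb gave 1 of 38, against 8 of 275.

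With the replicate number as a block, the exact permutation p was 1 for the Cdca3 share difference of 1.60, 0.375 for Cdca3 coverage, 0.5 for the Pole share and 0.875 for Pole coverage, and 0 blocks and 0 windows were called. With 16 assignments the smallest possible p is 0.125, so for shares, coverage and blocks this fit could not pass 0.05 and says nothing of stability. Deviations of same-numbered Cdca3 libraries correlated over windows at 0.29, -0.10, 0.22 and -0.03, and of Pole libraries at 0.17, -0.03, -0.05 and 0.05, so the numbers were not taken to pair the libraries. In Cdca3, 2 of 4 libraries correlated best with their own number.

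The higher telomeric density kept its direction and call under the settings run for it, which did not include a farther start. Its log2 ratio was 0.37 to 0.51 without each pair and 0.35 with values under 0.01. With the viewpoint 1 Mb toward either end the log2 ratio was 0.66 and 0.86. Pole coverage of the stretch minus that of the other trans chromosomes was 9.57 to 18.3 points without each pair, and -7.04 against the other chromosome ends. Coverage from Cdca3 minus Pole fell to 4.08 points from the farther start, was 27.2 in bins of 100 kb with a site and was 8.98 to 18.5 without each pair. Where a setting moved a value, the cause was not tested. With the 2 pair 1 Pole libraries left out together, a setting added after the data were seen, the Pole coverage difference was 7.04 points and the share difference -0.92. Unknown depth limits every statement that a place was not contacted.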
